A study of Mus musculus with 6 samples.

Results

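The sodium pump, aquaporin and ion transport genes described here are the transcripts that a lens uses to move ions and water, in lenses from mice lacking heat shock transcription factor 4 (Hsf4) and in wild-type lenses. The list named 7 genes. Members were taken as every probe set, a short group of oligonucleotides against 1 transcript, whose platform annotation gives exactly 1 gene symbol and that symbol is on the list. This gave 13 of the 22626 probe sets tested, for 6 genes: Atp1b1 (5 probe sets), Slc12a2 (3), Atp1b2 (2), Atp1b3, Aqp1 and Aqp5 (1 each). Atp2b1, a plasma membrane calcium pump, was not analysed here. The rule for taking probe sets used no measured value, but the genes were listed with earlier results of these data known.

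The Hsf4-null lenses came from newborn HSF4 null mice and the controls from newborn wild-type mice, with 3 arrays per group and the strain labeled ICR for all. The labels give no further allele, sex or treatment, and how many animals gave each RNA sample is not stated. The methods call the arrays biological triplicates. RNA came from the whole lens, so lower RNA per cell and fewer cells of 1 type cannot be told apart.

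The lens has no blood vessels and depends on transporters in its epithelium and fibers to keep its ions and water in balance. The Na,K-ATPase, or sodium pump, is built from a catalytic alpha subunit and a glycosylated beta subunit that brings it to the plasma membrane. It expels sodium and takes up potassium. Aquaporins are membrane channels for water, and Slc12a2 encodes NKCC1, which carries sodium, potassium and chloride into cells together and takes part in control of cell volume.

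The Hsf4 probe set served as a check of the labels. Its log2 intensity was 4.26, 4.09 and 3.78 on the Hsf4-null arrays, against 9.09, 9.39 and 9.56 on the wild-type arrays. Values are given as log2 of the deposited RMA intensity, a scale on which levels of 1 probe set can be compared between arrays but levels of different genes cannot. Array medians lay between 5.22 and 5.38, and a probe set under 5.22 on all 6 arrays is called dim. Of the 13 probe sets, 5 were dim, 1 was below that level on some arrays only and 7 were above it on all arrays. Lens epithelium markers such as Gja1 (12.97 in Hsf4-null and 12.87 in wild-type lenses) and fiber markers such as Cryba1 (14.33 in Hsf4-null and 14.31 in wild-type lenses) were bright in both groups. All 7 measured markers of cornea and skin were dim.

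In Hsf4-null lenses the brightest probe sets of the beta subunit genes Atp1b1 and Atp1b3 read lower and that of the cotransporter gene Slc12a2 higher on every array, a change of -23.5%, -16.2% and 21.2% of the wild-type level, but none of these passed the test. Those of Atp1b2, Aqp1 and Aqp5 overlapped between the groups and did not pass either. The test was limma, which fits each probe set and borrows information on variance from the others, with an adjusted p under 0.05 after Benjamini-Hochberg adjustment over the 22626. A single member passed, a dim probe set of Atp1b1 that fell. Over all probe sets tested, 1.94% passed as lower and 0.72% as higher, or 2.66% in all. The 12 members that did not pass had adjusted p from 0.162 to 0.915.

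Without adjustment, 5 of the 13 were lower and 1 was higher at p under 0.05, where 8.55% and 6.83% of all probe sets were. The same 6 are the ones whose groups did not overlap, 5 lower and 1 higher on every Hsf4-null array. Over all probe sets tested 11.7% were lower and 9.37% higher without overlap. Because 4 of the 5 lower ones belong to Atp1b1, they are not separate observations. At the looser threshold of the methods' own t-test, without adjustment over probe sets, 5 were lower and 1 higher, where 7.55% and 5.32% of all probe sets were. The median log2 change of the 13 was -0.18, against 0.00 over all probe sets tested, and it counts Atp1b1 5 times. Over the 6 genes by their brightest probe set it was 0.17, the opposite sign. The median of the 13 was -0.03 without the dim probe sets, and with an array left out it ran from -0.25 to -0.10, the value without Hsf4-null replicate 2.

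**Figure D1:**
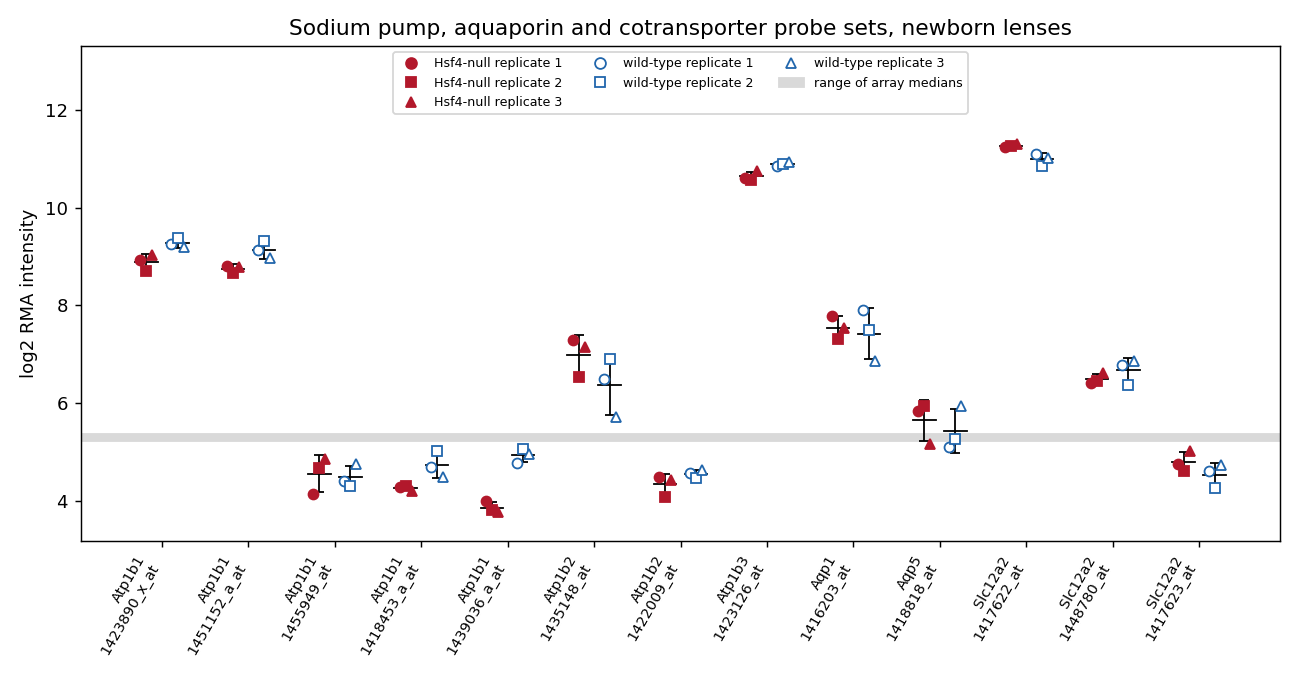
Log2 RMA intensity (vertical axis) of the 13 probe sets on each of 3 Hsf4-null (filled) and 3 wild-type (open) arrays, with lines at the mean and error bars of 1 SD. The gray band is the range of array medians, 5.22 to 5.38. The 2 brighter Atp1b1 probe sets, Atp1b3 and the brightest Slc12a2 probe set separate by group with narrow spread, while Aqp1, Aqp5 and the brighter Atp1b2 probe set overlap.

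Atp1b1 encodes the beta-1 subunit, the beta isoform found in most tissues. Its brightest probe set, 1423890_x_at, read 8.92, 8.70 and 9.03 on the Hsf4-null arrays, against 9.25, 9.37 and 9.18 on the wild-type arrays. All Hsf4-null arrays lay below all wild-type arrays. The log2 fold change was -0.39 (standard error 0.12, 95% confidence interval -0.66 to -0.11, limma adjusted p = 0.17). The suffix _x_at marks a probe set with some probes that may also match other transcripts. The next brightest, 1451152_a_at, was designed from the same cDNA and gave 8.82, 8.66 and 8.79 in Hsf4-null lenses, against 9.12, 9.31 and 8.96 in wild-type lenses. Again the groups did not overlap, at a log2 fold change of -0.38 (with standard error 0.12, limma adjusted p = 0.181). Neither passed the test, and the interval of the brightest probe set corresponds to a change of -36.7% to -7.56%.

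The 3 other Atp1b1 probe sets were dim and did not move alike. Probe set 1439036_a_at read 4.00, 3.82 and 3.78 in Hsf4-null lenses, against 4.79, 5.07 and 4.96 in wild-type lenses. This gap was wider than the spread within either group, and the log2 fold change was -1.07 (standard error 0.11, 95% confidence interval -1.34 to -0.81, limma adjusted p = 0.0028). Whether its Hsf4-null values lay above background was not tested, so the size of this change is uncertain. Its value was as low as -1.15 and as high as -1.01 when a single array was left out. Adding 16 to the intensities before log2 brought it to -0.61, and the methods' t-test, once adjusted the same way, did not call it (adjusted p = 0.0741).

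Probe set 1418453_a_at of Atp1b1 also separated the groups, at 4.29, 4.31 and 4.22 in Hsf4-null lenses, against 4.70, 5.03 and 4.51 in wild-type lenses, but did not pass (log2 difference -0.47 with standard error 0.14, limma adjusted p = 0.162). The last one, 1455949_at, overlapped, with 4.14, 4.68 and 4.86 in Hsf4-null lenses and 4.42, 4.32 and 4.76 in wild-type lenses. Its log2 fold change was 0.06 (95% confidence interval -0.41 to 0.53). Thus 4 of the 5 Atp1b1 probe sets were lower on every Hsf4-null array. Only 1439036_a_at passed.

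Atp1b3 encodes the beta-3 subunit and has 1 bright probe set, 1423126_at. It read 10.61, 10.56 and 10.74 in Hsf4-null lenses, against 10.85, 10.89 and 10.93 in wild-type lenses. All Hsf4-null values were below all wild-type values, by a narrow margin. The log2 fold change was -0.25 (standard error 0.10, 95% confidence interval -0.48 to -0.03, limma adjusted p = 0.262), and the interval reaches down to -28.2%. It did not pass the test.

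The summed intensity of 5 fiber markers was 45779 to 50772 on the Hsf4-null arrays, against 55218 to 56329 on the wild-type arrays, and Bfsp1, a beaded filament protein of fiber cells, was the one of them that fell (log2 difference -1.65, limma adjusted p = 0.000131). Without Bfsp1 the sum of the other 4 was 44205, 47256 and 42684 on the Hsf4-null arrays, against 44715, 45560 and 46387 on the wild-type arrays, with overlap, and the median log2 change of the 5 was -0.04. The summed intensity of 8 lens epithelium markers was 25864 to 27433 on the Hsf4-null arrays, against 26371 to 27012 on the wild-type arrays, and 0 of them passed. The dim Foxe3 was lower on every Hsf4-null array (log2 difference -0.38, limma adjusted p = 0.0808). It was the 1 of them with an unadjusted p under 0.05. The part of cell type composition in the Atp1b1 and Atp1b3 values was not tested.

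Promoter sequence was examined for Atp1b1 and Atp1b3, the beta subunits whose brightest probe sets were lower on every Hsf4-null array. Heat shock factors bind heat shock elements, made of GAA units in alternating orientation. The windows, from RefSeq for GRCm38.p6, run from 250 bases before to 50 bases after an annotated start, in the direction of transcription. Of the 6 genes, 4 had such windows in the table used, 5 windows in all. They were searched on both strands for the pairs GAANNTTC and TTCNNGAA, for CCAAT, the CCAAT box, and for GGGCGG, the GC box. The windows shown are chr1:164458306-164458605 (minus strand) for Atp1b1 and chr9:96363666-96363965 (minus strand), the downstream of 2 annotated starts, for Atp1b3. Capitals mark a CCAAT box on either strand in Atp1b1 and a pair of GAA units in Atp1b3.
Atp1b1: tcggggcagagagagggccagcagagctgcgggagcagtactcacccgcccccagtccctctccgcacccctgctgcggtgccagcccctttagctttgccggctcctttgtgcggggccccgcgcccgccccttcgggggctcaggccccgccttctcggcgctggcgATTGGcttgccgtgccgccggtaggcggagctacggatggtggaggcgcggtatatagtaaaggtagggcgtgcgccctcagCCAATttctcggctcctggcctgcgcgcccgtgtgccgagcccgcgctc
Atp1b3: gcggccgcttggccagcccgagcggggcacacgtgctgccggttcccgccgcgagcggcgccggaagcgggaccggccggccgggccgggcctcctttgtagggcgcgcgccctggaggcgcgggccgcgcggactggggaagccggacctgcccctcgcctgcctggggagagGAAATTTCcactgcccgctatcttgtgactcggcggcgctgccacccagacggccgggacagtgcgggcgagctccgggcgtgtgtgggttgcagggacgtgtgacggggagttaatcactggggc

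The Atp1b3 window held 1 GAANNTTC pair, at positions 175 to 182 counted from its 5′ end, and no other motif searched overlapped it. The pair was found in 7.86% of 32851 windows of this length in the mouse table, and either pair in 15.1%. The Atp1b1 window held no such pair. Its 2 CCAAT boxes start at positions 170 and 252, and 37.4% of all windows held at least 1. It also held 2 GC boxes, which 35.7% of all windows held at least once. The other Atp1b3 window and those of Aqp1 and Aqp5 held neither a pair nor a CCAAT box, and had 6, 1 and 3 GC boxes. A match is a run of letters, and binding was not measured here.

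Atp1b2 encodes the beta-2 subunit, best known from neurons and glia. Its brighter probe set, 1435148_at, read 7.29, 6.54 and 7.15 in Hsf4-null lenses, against 6.51, 6.91 and 5.72 in wild-type lenses. The groups overlapped, since Hsf4-null replicate 2 lay below wild-type replicate 2, and wild-type replicate 3 was the lowest of all arrays. The log2 fold change of 0.62 had the widest interval of the 13 (standard error 0.31, 95% confidence interval -0.11 to 1.35, limma adjusted p = 0.405). It was 0.29 without wild-type replicate 3, the lowest value with an array left out, and 0.88 without wild-type replicate 2, the highest. The dim probe set 1422009_at had 4.50, 4.10 and 4.44 in Hsf4-null lenses and 4.58, 4.48 and 4.64 in wild-type lenses, with a log2 fold change of -0.22 (with standard error 0.13, limma adjusted p = 0.471). The signs of these 2 estimates differ, and neither passed.

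Wild-type replicate 3 was also the lowest array in the summed intensity of markers of tissue beside the lens. For 7 ciliary body and iris markers that sum was 5642, 3947 and 5579 on the Hsf4-null arrays, against 4512, 3702 and 2174 on the wild-type arrays. For 7 retina markers it was 7908, 6805 and 8265 on the Hsf4-null arrays, against 8106, 6757 and 3984 on the wild-type arrays. Most of the retina sum was Glul alone, at 12.79, 12.69 and 12.86 in Hsf4-null lenses, against 12.92, 12.56 and 11.90 in wild-type lenses. Most of the ciliary body and iris sum was Zic1, at 11.82, 11.50 and 11.78 in Hsf4-null lenses, against 11.71, 11.50 and 10.80 in wild-type lenses. Of the markers in both lists, each by its brightest probe set, Msx1 was the only one to pass, higher in Hsf4-null lenses (log2 difference 1.40, limma adjusted p = 0.0367). The dimmer Msx1 probe set overlapped between groups and did not pass (log2 difference 0.18, limma adjusted p = 0.674). Slc4a4 was the only marker of both lists with a lower estimate (log2 difference -0.38, limma adjusted p = 0.538). Tyrp1 (log2 difference 1.30), Dct (1.30) and Pmel (1.27) had estimates near that of Msx1 but overlapped between groups and did not pass. The median log2 change was 1.27 for the ciliary body and iris list and 0.32 for the retina list. At an unadjusted p under 0.05 from limma, 3 of 7 and 0 of 7 were higher, against 7.34% of all genes tested. Of 8 mesenchyme markers, Col1a1 and Twist1 rose and 6 did not pass, with a median log2 change of 0.12. Dcn (log2 difference -0.09) and Pdgfra (-0.06) had lower estimates and the rest higher ones. The summed intensity of all 8 was 1993 to 2565 on the Hsf4-null arrays, against 1780 to 2060 on the wild-type arrays. Pdgfra, the brightest of them, read 10.24 in Hsf4-null and 10.30 in wild-type lenses. The part of such tissue in the Atp1b2 values was not tested.

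**Figure D2:**
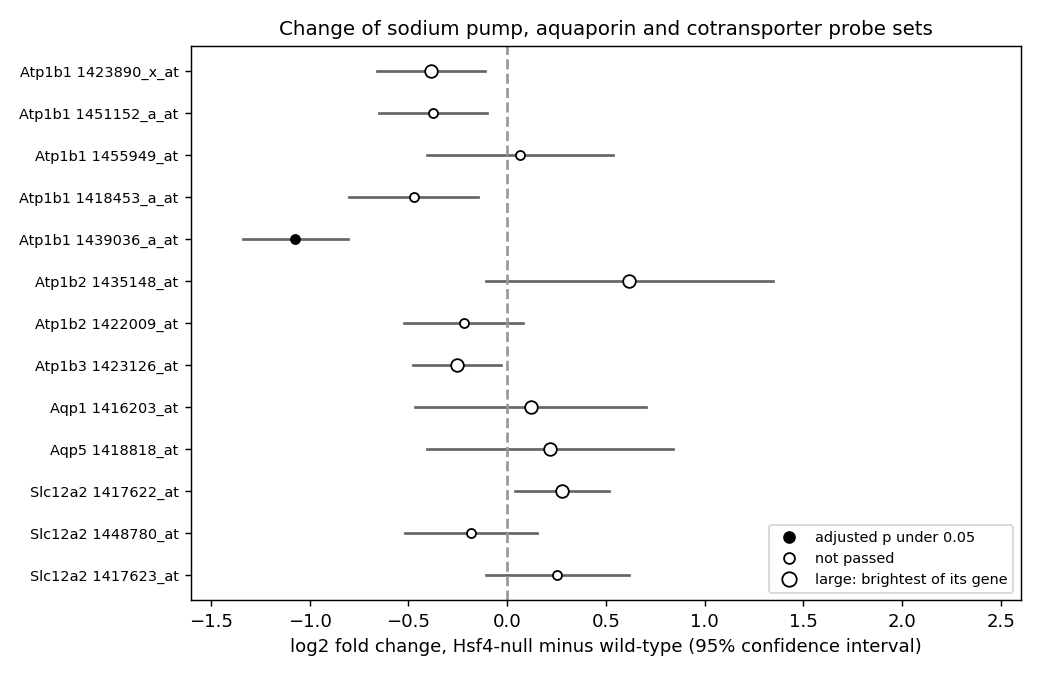
Log2 fold change, Hsf4-null minus wild-type lenses (horizontal axis), of the 13 probe sets with 95% confidence intervals from limma on 3 arrays per group. The filled point, Atp1b1 1439036_a_at at -1.07, is the one with an adjusted p under 0.05, and large points are the brightest probe set of each gene, from -0.39 for Atp1b1 to 0.62 for Atp1b2.

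Whether related transcripts changed unequally was asked within arrays, from the difference in log2 intensity between the brightest probe sets of a pair of genes. The difference Atp1b1 minus Atp1b2, set relative to its wild-type mean, was -1.26, -0.74 and -1.02 on the Hsf4-null arrays, against -0.15, -0.43 and 0.58 on the wild-type arrays. These groups did not overlap, and the shift was -1.01 (exact two-sided permutation p = 0.1, adjusted p = 0.4 over 4 pairs). With the mean over all probe sets of each gene the shift was -0.65. Atp1b3 minus Atp1b2 shifted by -0.87 (exact permutation p = 0.2), with overlap between groups, by -0.45 with the mean over all probe sets and by -0.53 without wild-type replicate 3. Atp1b1 minus Atp1b3 shifted by -0.13 and Aqp1 minus Aqp5 by -0.10, with exact permutation p of 0.3 and 1. With 3 arrays against 3, no pair could go below 0.1, so an unequal change was not shown for any.

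**Figure D3:**
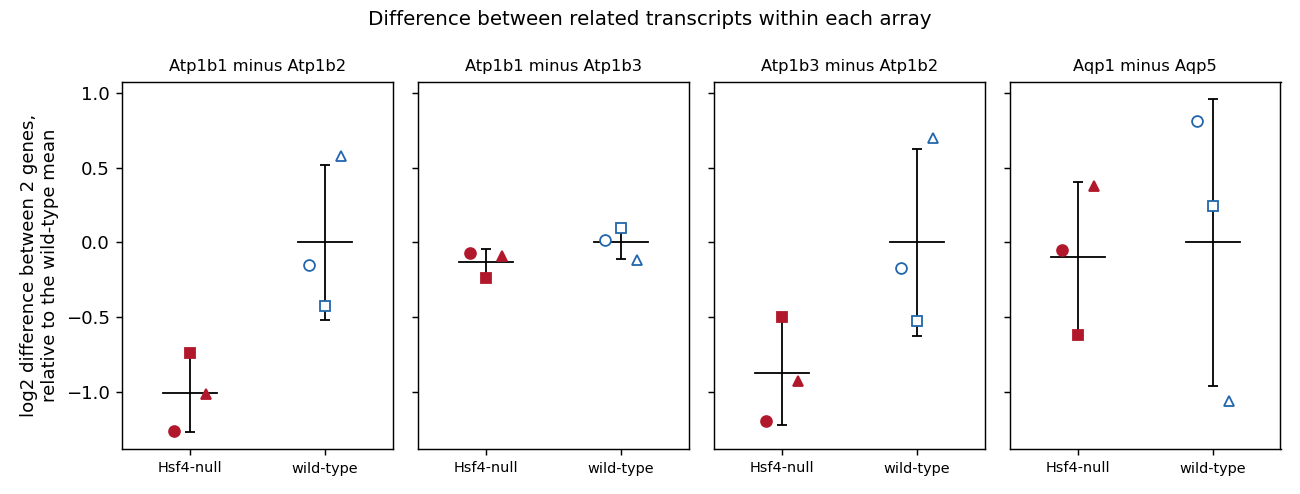
Difference in log2 RMA intensity between the brightest probe sets of 2 genes on each array, relative to the wild-type mean (vertical axis), in 3 Hsf4-null (filled) and 3 wild-type (open) samples, with lines at the mean and error bars of 1 SD. Circles, squares and triangles are replicates 1, 2 and 3. Atp1b1 minus Atp1b2 is the pair without overlap. Of the wild-type arrays, replicate 3 lies farthest from the wild-type mean in all 4 pairs, by the least in Atp1b1 minus Atp1b3 (-0.12).

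Aqp1, a water channel of the lens epithelium that is also abundant in red blood cells and many endothelia, had 1 probe set, 1416203_at. It read 7.78, 7.31 and 7.54 in Hsf4-null lenses, against 7.90, 7.50 and 6.87 in wild-type lenses. Both the highest and the lowest value belonged to wild-type lenses. The log2 fold change was 0.12 (standard error 0.25, 95% confidence interval -0.46 to 0.70, limma adjusted p = 0.866), and it was -0.16 without wild-type replicate 3. The interval reaches from -27.5% to 62.8%, so that a change of moderate size was not detectable with these arrays.

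Vascular and blood markers ran higher in Hsf4-null lenses in sum, but not gene by gene. Pecam1 (log2 difference -0.22), Tie1 (-0.28), Hba-a1 (-0.14) and Epb42 (-0.14) had lower estimates, and the rest had higher ones. The summed intensity of 8 vascular markers was 2258 to 2339 on the Hsf4-null arrays, against 1575 to 2139 on the wild-type arrays. That of 5 blood markers was 130 to 149 on the Hsf4-null arrays, against 96.7 to 109 on the wild-type arrays, with Hba-a1, the defining alpha-globin marker, dim at 3.68 in Hsf4-null and 3.82 in wild-type lenses. None of these 13 markers passed, and 3 of each list were higher at an unadjusted p under 0.05, against 7.34% of all genes tested. Their part in the Aqp1 level was not tested.

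Aqp5, a water channel of the lens and of the corneal epithelium, lay close to the array medians. Its probe set, 1418818_at, read 5.85, 5.95 and 5.18 in Hsf4-null lenses, against 5.11, 5.27 and 5.95 in wild-type lenses. A single array of each group stood apart from its other 2, and the groups overlapped over nearly their whole range. The log2 fold change was 0.22 (standard error 0.27, 95% confidence interval -0.40 to 0.84, limma adjusted p = 0.753). With an array left out it ran from 0.051, without wild-type replicate 1, to 0.47, without wild-type replicate 3, and was also over 1.5 times lower or higher without each of the other 4. The summed intensity of the 7 cornea and skin markers, all dim, was 106 to 131 on the Hsf4-null arrays, against 108 to 115 on the wild-type arrays. None passed. Trp63 was higher on every Hsf4-null array (log2 difference 0.68, limma adjusted p = 0.154) and was the 1 of them with an unadjusted p under 0.05. Krt15 was lower on every Hsf4-null array (log2 difference -0.19, limma adjusted p = 0.418). Mip, or aquaporin 0, the main water channel of fiber cells, is no member but was measured by 2 probe sets. The brighter had a log2 fold change of -0.14 (limma adjusted p = 0.61). The other, at 11.83, 11.82 and 11.81 in Hsf4-null lenses and 12.03, 12.06 and 12.16 in wild-type lenses, did not overlap but did not pass either (log2 difference -0.26, limma adjusted p = 0.223).

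Slc12a2 was measured by 3 probe sets, all designed from the same expressed sequence tag. The brightest, 1417622_at, read 11.24, 11.26 and 11.29 in Hsf4-null lenses, against 11.10, 10.84 and 11.02 in wild-type lenses. It is the one member that was higher on every Hsf4-null array, at a log2 fold change of 0.28 (standard error 0.10, 95% confidence interval 0.04 to 0.52, limma adjusted p = 0.251), or 21.2%. It did not pass.

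The other Slc12a2 probe sets differed from each other in sign. For 1448780_at the values were 6.41, 6.46 and 6.62 in Hsf4-null lenses and 6.78, 6.38 and 6.86 in wild-type lenses (log2 difference -0.18 with standard error 0.14, limma adjusted p = 0.608). For the dim 1417623_at they were 4.76, 4.63 and 5.02 in Hsf4-null lenses and 4.62, 4.28 and 4.74 in wild-type lenses (log2 difference 0.26 with standard error 0.16, limma adjusted p = 0.49). Both overlapped between groups. The estimates of 1417622_at and 1417623_at had the same sign and that of 1448780_at the opposite, each also with any array left out.

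Genes that work beside these 6 were taken from 7 lists of ion and water transport genes. Of 115 genes listed, 86 had a probe set with that single symbol and 29 were not analysed here. Each was represented by its brightest probe set, and 40 of the 86 were dim. In Hsf4-null lenses 1 rose, 0 fell and 85 did not pass at an adjusted p under 0.05 from limma, where 0.775% of all 12393 genes rose and 2.11% fell, 2.88% in all. At an unadjusted p under 0.05, 15 were higher and 3 lower, where 7.34% and 8.38% of all genes were, and the 3 lower ones include Atp1b1 and Atp1b3. The median log2 change of the 86 was 0.05, against 0.01 over all genes.

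Car2, carbonic anhydrase 2, which interconverts carbon dioxide and bicarbonate, was the gene that rose. It read 9.39, 9.52 and 9.24 in Hsf4-null lenses, against 8.67, 8.91 and 8.83 in wild-type lenses, without overlap. Its log2 fold change was 0.58 (with standard error 0.12, limma adjusted p = 0.0458). The call lay near the threshold, was kept in 6 of 15 other settings that give an adjusted p, and was lost whichever array was left out (adjusted p from 0.0739 to 0.127), with the replicate number as a block (0.0879), under median centring (0.0726) and with the methods' t-test once adjusted (0.184).

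By list, 0 of 11 sodium pump subunits and their FXYD regulators passed, 2 higher and 2 lower without adjustment, with a median log2 change of 0.09. Among 10 calcium pumps and exchangers 0 passed (2 higher and 1 lower without adjustment, median -0.01). For 9 aquaporins both counts were 0 (median 0.05). Of 13 cation-chloride cotransporters and their kinases 0 passed, 2 being higher and 0 lower without adjustment (median 0.02). Car2 was the 1 of 14 acid-base transporters that passed (median 0.02), and 4 of these were higher and 0 lower without adjustment. The 13 chloride and volume channels (median 0.12) and the 16 potassium and TRP channels (median 0.08) held 0 that passed, with 2 and 3 higher and 0 lower without adjustment.

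**Figure D4:**
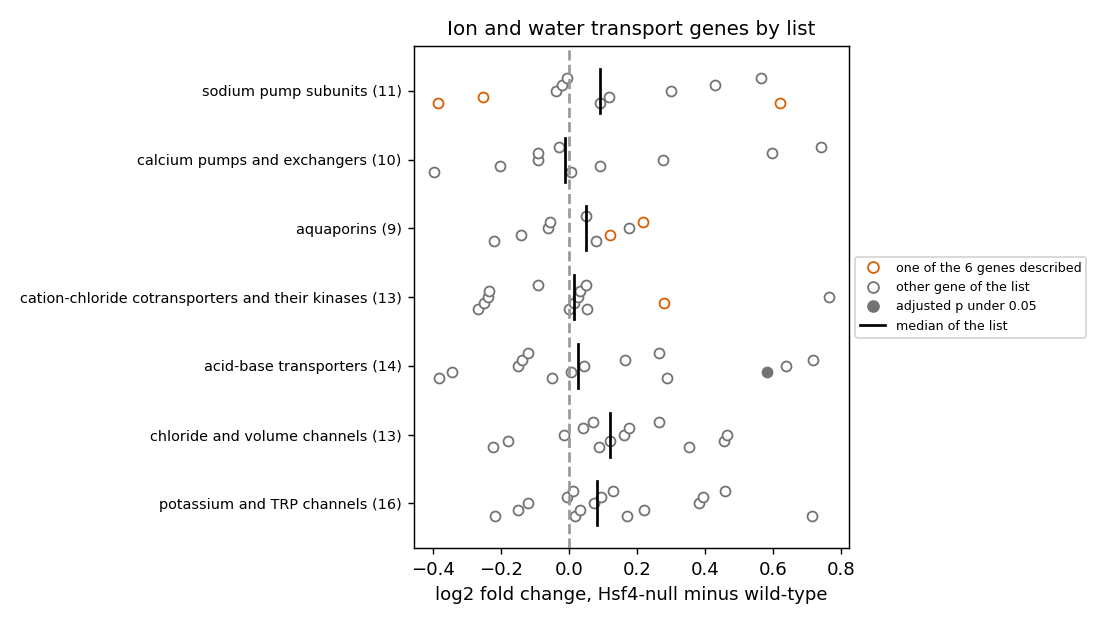
Log2 fold change, Hsf4-null minus wild-type lenses (horizontal axis), of the 86 measured transport genes in 7 lists, each gene by its brightest probe set, with the number measured in brackets. Vertical bars are list medians, from -0.01 to 0.12, and the filled point is Car2 at 0.58, while the 6 genes described in detail lie between -0.39 and 0.62.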

How the data were processed

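RNA of newborn lenses, 3 Hsf4-null and 3 wild-type samples grouped by title, was hybridized to 6 Affymetrix mouse arrays. The deposited values are linear intensities that the authors made with RMA (version not stated). RMA brings arrays to a common distribution, so a change shared by most transcripts would be lost.

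Log2 was taken, 64 control probe sets were left out, and 22626 were tested in limma 3.58.1 (R 4.3.3), with lmFit and eBayes on 2 groups and no block. Genes were named through the platform annotation, which gives 20380 probe sets 1 symbol, 691 several and 1555 none. Of these, 20351 were matched to RefSeq (GRCm38.p6). Pairs of genes were compared by exact permutation in Python 3.11.15. Procedures were tested on simulated data.

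Named are all members, every gene of the transport lists whose brightest probe set passed, Mip and Hsf4, and for any member whose brightest probe set passed, the genes of most similar profile. The last applied to no gene. Marker genes and genes called only under other settings were named after their values were seen. Members and lists were chosen with earlier results of these data known. The methods' second test, SAM, was not run, and 1 item is not reported here. Precision is limited by the number of arrays, and p-values measure the spread between these samples.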

Additional observations from a re-analysis of the deposited data

How the results depend on the processing

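Of 203 fold changes of single probe sets recomputed under other settings, 194 kept their direction and their side of the threshold. This count is no measure of stability. The replicate block, other variance options of limma and the t-tests leave the fold change as it was, so its direction could not differ there. Most of these probe sets also lay far from the threshold, since the 12 that did not pass had adjusted p from 0.162 up. With an array left out, the log2 fold change of Aqp1 ran from -0.16, its value without wild-type replicate 3, to 0.36. That of Atp1b1 1455949_at ran from -0.087 to 0.27, and was below 0 when Hsf4-null replicate 3 or wild-type replicate 2 (-0.03) was missing. Atp1b1 1439036_a_at passed in 13 of 14 settings with an adjusted p.

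The count of lower sodium pump, aquaporin and cotransporter probe sets, 1 by limma, was 0 without dim probe sets, which leaves that probe set untested, and 0 with the adjusted t-test of the methods. At the t-test's own threshold 5 were lower and 1 higher. Leaving out any array gave 1 lower and 0 higher.

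The 1 transport gene that rose became 0 with the replicate number as a block, 0 by the adjusted t-test, 0 to 1 with an array left out, 2 under quantile normalization or median centring, and 13 by the t-test at its stated threshold, which also gave 4 lower. Without wild-type replicate 1 the gene was Fxyd5, not Car2, and under median centring they were Slc12a5 and Slc4a1. Over all probe sets, 163 higher and 439 lower became 94 to 177 and 226 to 385 with an array left out, 1204 and 1708 by the t-test at its stated threshold, and 22 and 63 after adjustment. The cause of these shifts was not tested.

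The shift of Aqp1 minus Aqp5 had no stable sign and ran from -0.63 to 0.31 with an array left out. The deviations of same-numbered arrays from their group means had correlations of 0.25, -0.21 and -0.08. With 3 arrays per group these values do not show a pairing by number and cannot exclude one. With the replicate block 268 probe sets were lower and 114 higher in all, and the counts for the 13 probe sets were the same, 1 and 0. Dim probe sets limit what the 3 fainter Atp1b1 values can show, and no detection calls were used.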
